A study of Mus musculus with 45 samples.

Results

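The mRNA levels of 10 conjugation genes were followed in livers of Uhrf1hepKO mice and wild-type mice, before and after partial hepatectomy. The genes are the UDP-glucuronosyltransferases Ugt1a1, Ugt2a3, Ugt2b1, Ugt2b5, Ugt2b34 and Ugt2b36 and the cytosolic sulfotransferases Sult1a1, Sult1b1, Sult1d1 and Sult1e1. They were named for this description and found by Ensembl ID. All 10 were among the 19966 gene IDs of the count table, and all 10 were among the 14090 genes that passed the filter on low counts. Uhrf1 is a chromatin protein that maintains DNA methylation through cell division, and the line's name places its loss in hepatocytes. The labels give the strain as C57Bl/6, the tissue as liver, the age at surgery as 8 to 12 weeks and the diet as normal for both genotypes. The operation, in which 2/3 of the liver is removed, was done in the morning. KO and WT livers were taken without surgery (baseline) or with a delay of 24, 30, 40, 48 or 96 h, of 7 days or of 4 weeks, which makes 16 groups. The descriptions of the baseline libraries begin with 40hrs_b. Whether these libraries share animals or a batch with the 40 h libraries is not stated, and the main tests treated them as unpaired. The labels name no Cre driver, no allele, no sex and no hour of collection; the Y-linked gene Ddx3y stood at 31.9 to 102 CPM in all 45 libraries. Poly(A) RNA was sequenced in 45 libraries, with 3 in each of 13 groups and 2 in each of WT 30 h, WT 48 h and KO 7 days. Whether replicates came from separate animals is not stated, so the spread behind each p-value is that between libraries and may be technical.

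UDP-glucuronosyltransferases sit in the endoplasmic reticulum and attach glucuronic acid, taken from UDP-glucuronic acid, to bilirubin, steroids, bile acids and drugs. Cytosolic sulfotransferases attach sulfate, taken from the activated sulfate PAPS, to phenols, hormones and catecholamines. Both kinds of conjugate are more soluble in water than the parent compound and are carried out of the hepatocyte into bile or blood. In normal adult liver both families are made mainly by hepatocytes.

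Libraries held 12.85 to 23.13 M counts. Uhrf1, which rises in dividing cells, averaged 5.8 CPM in KO livers and 66.4 CPM in WT livers at 40 h (CPM, counts per 1 M counts, TMM-scaled). It averaged 12.9 CPM in KO and 32.3 CPM in WT livers at 30 h, and 4.98 CPM in KO and 19.5 CPM in WT livers at 48 h. At baseline it averaged only 0.117 CPM in KO and 0.415 CPM in WT livers. Bglap3 and Rhox5, chosen after their values were seen, separated the genotypes away from 96 h. Bglap3 lay at 3.18 to 17.4 CPM in 20 KO libraries and at 0.112 to 1.53 CPM in 19 WT libraries. The 3 libraries labelled WT 96 h held 9.38 to 28.4 CPM of Bglap3 and 2.86 to 9.58 CPM of Rhox5, against at most 0.59 CPM of Rhox5 in the other WT libraries. These libraries therefore go against their label, and every result at 96 h is given as labelled and apart from the rest. The libraries labelled KO 96 h also stood apart, with 171572 to 300977 CPM of albumin mRNA (Alb) against 41549 to 89273 CPM in the other 20 KO libraries. In bulk liver RNA, fewer cells of a type and less RNA per cell cannot be told apart.

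Most of the genes are neighbours on mouse chromosome 5, and Ugt1a1 shares its exons with the rest of its locus. On GRCm38 (mm10), Ugt2b34 (ENSMUSG00000029260) lies at chr5:86889767-86906937, Ugt2b1 (ENSMUSG00000035836) at chr5:86916638-86926530, Ugt2b36 (ENSMUSG00000070704) at chr5:87065927-87092555, Ugt2b5 (ENSMUSG00000054630) at chr5:87124960-87140318 and Ugt2a3 (ENSMUSG00000035780) at chr5:87324972-87337195. Next to them lie Sult1b1 (ENSMUSG00000029269) at chr5:87513339-87538195, Sult1d1 (ENSMUSG00000029273) at chr5:87554645-87569027 and Sult1e1 (ENSMUSG00000029272) at chr5:87575969-87591594, and all 8 are on the minus strand. Sult1a1 (ENSMUSG00000030711) lies at chr7:126672865-126676432, also on the minus strand. Ugt1a1 (ENSMUSG00000089960) lies at chr1:88211959-88218997 on the plus strand. Of its 2224 exon bases, 1839 (82.7%) are also exons of the other Ugt1a genes, so its count can hold only reads that the counting assigned to it alone and its level is uncertain. For Ugt2b5, 24.7% of 100-base windows of its transcript also occur in Ugt2b37 or Ugt2b38, so reads could be split among these genes. For Sult1a1, 61 exon bases (4.05%) overlap Sgf29.

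RefSeq promoter windows (GRCm38.p6) of 250 bases before to 50 bases after the start were available for all 10 genes. Only the 250 bases before the start were searched. The letters TTATGTAA (TTACATAA on the other strand), a D-box form, were in the searched bases of Ugt2b1 and in those of 264 of 27025 genes of the whole table (0.977%). A direct repeat, AGGTCANAGGTCA (TGACCTNTGACCT on the other strand), was in 0 of the 10 promoters and in 11 genes of the table (0.0407%). A match describes letters and is not evidence that a factor was bound.

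Levels between genes were compared per length, as the authors' FPKM. At baseline Ugt2b5 was highest, at 466 FPKM in KO and 496 FPKM in WT livers, followed by Ugt2b36 at 380 FPKM in KO and 398 FPKM in WT. In CPM per kilobase of exon Ugt2b36 stood at 326 in KO and 391 ± 13.9 in WT, and Ugt2b1 at 294 in KO and 438 ± 82 in WT (SD, n = 3), so the order of these 2 genes in WT depended on the measure. Sult1e1 was lowest, at 0.845 FPKM in KO and 0.592 FPKM in WT, and Sult1b1 was next at 19.5 FPKM in KO and 23.5 FPKM in WT. Baseline liver of both genotypes therefore held abundant Ugt2b mRNA and nearly no estrogen sulfotransferase mRNA. Ugt1a1 stood at 222 FPKM in KO and 252 FPKM in WT, but its CPM per kilobase of exon were 20.8 in KO and 25.8 in WT. Per kilobase of the exon bases that it shares with no other gene, they were 120 in KO and 149 in WT. The remaining levels below are TMM-scaled CPM and compare 1 gene between libraries.

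**Figure D1:**
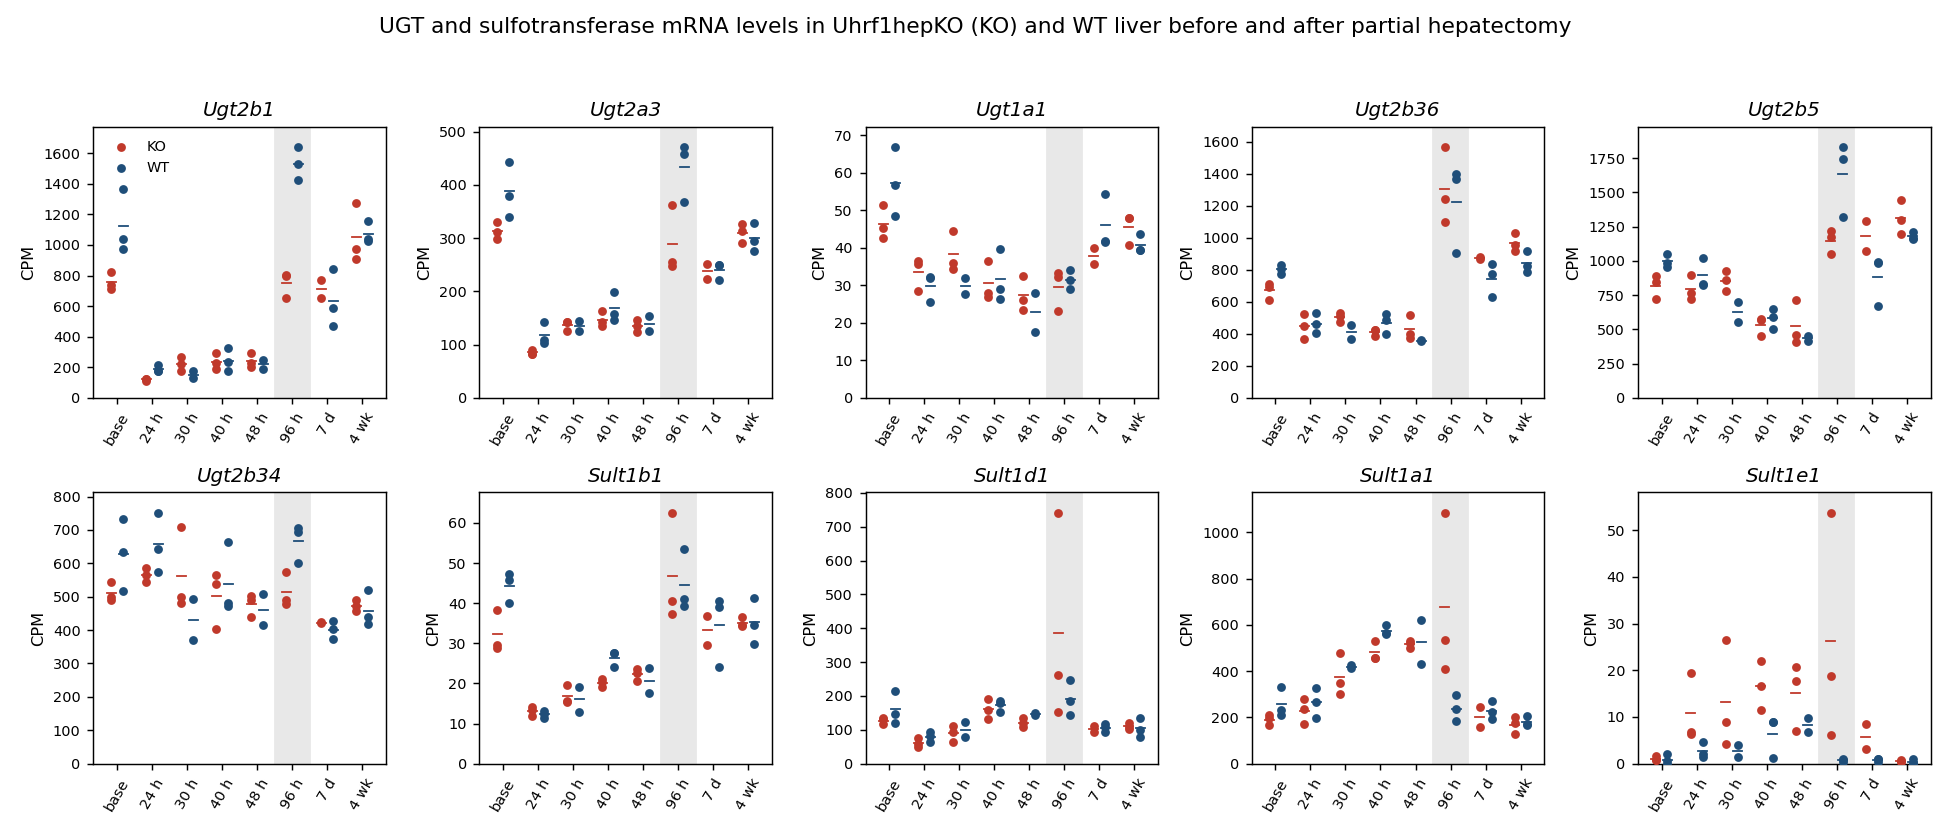
CPM (TMM-scaled) of each of the 10 genes in every library, with KO points left of WT points and short bars for group means; the 96 h libraries, whose labels are in doubt, are shaded and the time axis is not to scale. Ugt2b1, Ugt2a3 and Sult1b1 were low from 24 to 48 h in both genotypes, Sult1a1 was high at 40 and 48 h and Sult1e1 from 24 to 48 h in KO, and Ugt2b34 changed least.

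Ugt2b1 and Ugt2a3 fell in both genotypes, and Ugt2b1 had the lowest log2 fold change of the 10 genes at 24, 30, 40 and 48 h in both. Ugt2b1 conjugates steroids and other compounds. It stood at 112, 123 and 125 CPM in KO livers at 24 h, against 736, 822 and 712 CPM in KO livers at baseline. In WT livers it stood at 175, 212 and 178 CPM at 24 h, against 1040, 971 and 1366 CPM at baseline. No 24 h library came near a baseline library in either genotype. The log2 fold change at 24 h was -2.66 ± 0.22 in KO (SE; edgeR quasi-likelihood test, Benjamini-Hochberg adjusted p = 1.4e-10) and -2.58 ± 0.22 in WT (adjusted p = 2.13e-10). At 30, 40 and 48 h it remained called lower, with log2 fold changes of -1.77, -1.68 and -1.65 in KO and of -2.89, -2.21 and -2.36 in WT. By 7 days the KO libraries, at 771 and 654 CPM, did not differ by the test from KO baseline (-0.09, adjusted p = 0.868), while the WT libraries, at 844, 472 and 589 CPM, were lower than WT baseline (-0.83, adjusted p = 0.0198). That WT call was lost without baseline replicate 3 (adjusted p = 0.154), 7-day replicate 2 (0.154) or 7-day replicate 3 (0.0835). At 4 weeks the 3 KO libraries held 906, 972 and 1273 CPM and the 3 WT libraries 1039, 1027 and 1154 CPM.

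Ugt2a3, whose human counterpart conjugates bile acids, followed a similar course at a lower count. KO livers held 82.1, 83.1 and 89.9 CPM at 24 h, against 330, 298 and 311 CPM at baseline. WT livers held 103, 143 and 108 CPM at 24 h, against 380, 339 and 444 CPM at baseline. The 24 h and baseline groups did not overlap, and the 24 h mean was the lowest of the course in both genotypes. In WT the 24 h libraries overlapped those at 30 h (145 and 126 CPM). The 24 h level was not tested against later times. The log2 fold change at 24 h was -1.88 ± 0.14 in KO (adjusted p = 4.13e-11) and -1.71 ± 0.14 in WT (adjusted p = 2.13e-10). It stayed between -1.20 and -1.09 in KO and between -1.52 and -1.21 in WT at 30 and 40 h, and was -1.22 in KO and -1.47 in WT at 48 h, called lower each time. At 7 days it was -0.40 in KO (adjusted p = 0.129) and -0.69 in WT (adjusted p = 0.00371). Across the 16 group means, Ugt2a3 and Ugt2b1 had the highest correlation of any pair of the 10 genes (Pearson r = 0.98, and 0.97 without 96 h).

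Ugt1a1, the enzyme that conjugates bilirubin, fell less deeply. It was at 32.4, 23.4 and 26.1 CPM in KO livers at 48 h, against 45.3, 42.5 and 51.3 CPM at baseline. In WT livers it was at 17.6 and 27.9 CPM at 48 h, against 48.4, 56.8 and 67.0 CPM at baseline. All 48 h libraries lay below all baseline libraries of their genotype. The log2 fold change at 48 h was -0.77 ± 0.17 in KO (adjusted p = 0.000558; 0.0545 with limma on log2(FPKM + 0.1)) and -1.34 ± 0.20 in WT (adjusted p = 2.23e-06). WT livers were also called lower at 24, 30 and 40 h (-0.94, -0.94 and -0.85). KO livers were called lower at 24 and 40 h (-0.47 and -0.60) and not at 30 h (-0.28, adjusted p = 0.218), and the KO call at 24 h was lost without any 1 of 5 of its 6 libraries (highest adjusted p = 0.204, without 24 h replicate 3). It was also lost with library sizes only (0.0607), no filter (0.055), the replicate block (0.0526) and limma (0.0931 and 0.0814). No call remained in either genotype at 7 days or 4 weeks.

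Ugt2b36 and Ugt2b5 had the highest FPKM of the 6 at baseline, and they were lower in the first 48 h to different extents. Ugt2b36 held 519, 374 and 397 CPM in KO livers at 48 h, against 690, 613 and 713 CPM at baseline. It held 359 and 356 CPM in WT livers at 48 h, against 832, 806 and 775 CPM at baseline. The 48 h and baseline libraries did not overlap. Its log2 fold changes at 24, 30, 40 and 48 h were -0.59, -0.41, -0.71 and -0.64 in KO and -0.79, -0.97, -0.78 and -1.17 in WT, all called lower. The KO call at 24 h was lost without 24 h replicate 3 (adjusted p = 0.0543), and that at 30 h was lost without any of its 3 libraries, without baseline replicate 1 or 3, and with no filter on low counts (0.0612).

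Ugt2b5 departed from this in timing. At 24 h it stood at 765, 900 and 719 CPM in KO livers, against 845, 723 and 887 CPM at baseline, and at 1023, 834 and 823 CPM in WT livers, against 1051, 988 and 953 CPM at baseline. The ranges overlapped in both genotypes, with log2 fold changes of -0.04 in KO and -0.16 in WT. By 48 h it stood at 714, 455 and 410 CPM in KO livers and at 454 and 418 CPM in WT livers, with log2 fold changes of -0.64 ± 0.17 in KO (adjusted p = 0.00279) and -1.20 ± 0.19 in WT (adjusted p = 8.46e-06). At 30 h the WT livers were called lower (-0.67, adjusted p = 0.011) and the KO livers were not (0.06, adjusted p = 0.802), and the WT call was lost without 30 h replicate 3 (-0.51, adjusted p = 0.211). At 4 weeks Ugt2b5 held 1300, 1199 and 1442 CPM in KO livers, above all 3 KO baseline libraries (0.68 ± 0.17, adjusted p = 0.0109), a call lost without baseline replicate 2 or 4-week replicate 3 (adjusted p = 0.06). Ugt2b36 was also called higher in KO at 4 weeks (0.52, adjusted p = 0.0309), a call lost without any 1 of the 6 libraries (adjusted p 0.0608 to 0.113). Both 4-week calls were lost with limma (0.0923 and 0.0824 for Ugt2b5, 0.162 and 0.149 for Ugt2b36), and that of Ugt2b36 with library sizes only (0.0744).

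Ugt2b34 was the flattest of the 10. Its KO means ranged from 422 CPM at 7 days to 565 CPM at 24 h, a ratio of 1.34, and its WT means apart from 96 h differed by a ratio of 1.64. No KO time was called against KO baseline, with log2 fold changes from -0.28 at 7 days to 0.14 at 24 h. In WT it was called lower at 30 h (-0.54, adjusted p = 0.027), 48 h (-0.44, adjusted p = 0.0487) and 7 days (-0.64, adjusted p = 0.0137). The 48 h call was lost in 6 of 8 other processing alternatives, and the 30 h call in 4 of 8. The losses at 48 h included library sizes only (-0.25, adjusted p = 0.369), the replicate block (0.0645), the fit without the 96 h libraries (0.0632) and limma (-0.18). The 7-day call was lost with library sizes only (0.0535) and with limma (0.115 and 0.111). Each of those 3 calls was lost without some single libraries, among them WT baseline replicate 3 (adjusted p 0.132 to 0.205), the highest WT baseline library at 732 CPM against 516 and 633 CPM in the others.

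Summed over the 6 UGT genes, mRNA at 48 h was 1838 ± 325 CPM in KO livers and 1637 ± 145 CPM in WT livers (SD, n = 3 and 2). At baseline the sums were 3118 ± 111 CPM in KO and 4000 ± 294 CPM in WT (n = 3 each). At 4 weeks they were 4158 ± 367 CPM in KO and 3893 ± 159 CPM in WT (n = 3 each). The 48 h libraries of both genotypes thus lay below those of baseline and of 4 weeks.

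Among the sulfotransferases, Sult1b1 fell and Sult1a1 and Sult1e1 rose. Sult1b1, which sulfates thyroid hormones, had 13.4, 14.1 and 12.0 CPM in KO livers at 24 h, against 38.2, 29.6 and 28.9 CPM at baseline. In WT livers it had 11.4, 13.1 and 12.5 CPM at 24 h, against 47.3, 40.0 and 45.8 CPM at baseline. Each 24 h library lay below the lowest baseline library of its genotype. The log2 fold change at 24 h was -1.29 ± 0.18 in KO (adjusted p = 2.2e-06) and -1.85 ± 0.19 in WT (adjusted p = 5.79e-09). The fall then narrowed to -0.93, -0.68 and -0.53 in KO and to -1.47, -0.75 and -1.10 in WT at 30, 40 and 48 h, each called, and no call remained at 7 days or 4 weeks. The KO call at 48 h was lost without baseline replicate 1 (adjusted p = 0.129) or 48 h replicate 1 (0.071), with library sizes only (0.0619) and with limma (0.278 and 0.256), and the WT call at 40 h with limma on log2(FPKM + 0.1) (0.0505).

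Sult1d1, a mouse enzyme for catecholamines and small phenols, was low at 24 h. It was at 59.4, 48.5 and 76.4 CPM in KO livers at 24 h, against 131, 117 and 134 CPM at baseline, and at 92.2, 80.4 and 63.4 CPM in WT livers at 24 h, against 146, 121 and 215 CPM at baseline. The groups did not overlap in either genotype. The log2 fold change was -1.05 ± 0.33 in KO (adjusted p = 0.0187) and -1.03 ± 0.33 in WT (adjusted p = 0.0221). Both calls depended on single libraries: the KO call was lost without 24 h replicate 1 or 2 or baseline replicate 3 (adjusted p 0.052 to 0.088), and the WT call without 24 h replicate 2 or 3 or baseline replicate 3 (0.0519 to 0.133). No other time apart from 96 h was called, and at 40 h the log2 fold change was 0.34 in KO and 0.10 in WT.

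Sult1a1, a phenol sulfotransferase, was near its baseline level at 24 h and high at 40 and 48 h. At 24 h it had 170, 235 and 278 CPM in KO livers, against 166, 209 and 198 CPM at baseline, and 329, 268 and 197 CPM in WT livers, against 234, 210 and 332 CPM at baseline. At 40 h it had 457, 532 and 455 CPM in KO livers and 565, 600 and 562 CPM in WT livers, above every baseline library of either genotype. The log2 fold change at 40 h was 1.33 ± 0.26 in KO (adjusted p = 0.000126) and 1.16 ± 0.26 in WT (adjusted p = 0.000617). At 48 h it was 1.44 in KO (adjusted p = 4.64e-05) and 1.03 in WT (adjusted p = 0.00514), the WT call being lost without 48 h replicate 3 (0.74, adjusted p = 0.122). At 30 h the KO livers were called higher (0.98, adjusted p = 0.00391) and the WT livers were not (0.70, adjusted p = 0.0877). At 7 days and 4 weeks its group means were 168 to 229 CPM in both genotypes, near the baseline means of 191 CPM in KO and 258 CPM in WT, and no call remained.

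Sult1e1, the estrogen sulfotransferase, was nearly silent at baseline and rose after surgery. It had 0.703, 1.54 and 0.875 CPM in KO livers and 0.657, 0 and 1.99 CPM in WT livers at baseline. A count of 0 in WT baseline replicate 2 allows up to 0.214 CPM, the level of 3 counts in that library, for counting error alone. At 24 h it had 6.25, 6.86 and 19.5 CPM in KO livers and 2.01, 1.53 and 4.56 CPM in WT livers. At 40 h it had 16.6, 22.1 and 11.4 CPM in KO livers and 8.84, 1.21 and 8.98 CPM in WT livers. All KO libraries at 24, 30, 40 and 48 h lay above all KO baseline libraries, with a spread of up to several fold among libraries of 1 group. The log2 fold changes in KO were 3.37 ± 0.90, 3.66 ± 0.90, 3.99 ± 0.90 and 3.85 ± 0.90 at 24, 30, 40 and 48 h (adjusted p 0.000779 to 0.00621), of which that at 24 h was lost without 24 h replicate 3 (2.64, adjusted p = 0.0541). In WT they were 1.64 (adjusted p = 0.27), 1.63 (0.356), 2.85 (0.0203) and 3.25 (0.0138). The WT calls at 40 and 48 h were each lost without WT baseline replicate 1 or 2 and without some 40 h or 48 h libraries (adjusted p 0.0504 to 0.0929). At 7 days it had 8.44 and 3.17 CPM in KO livers (2.48, adjusted p = 0.132) and 1.09, 1 and 0.383 CPM in WT livers (-0.08), and at 4 weeks at most 1.02 CPM in any library. Its counts were low, with a median of 44 over the 45 libraries and 2 libraries at 0.

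**Figure D2:**
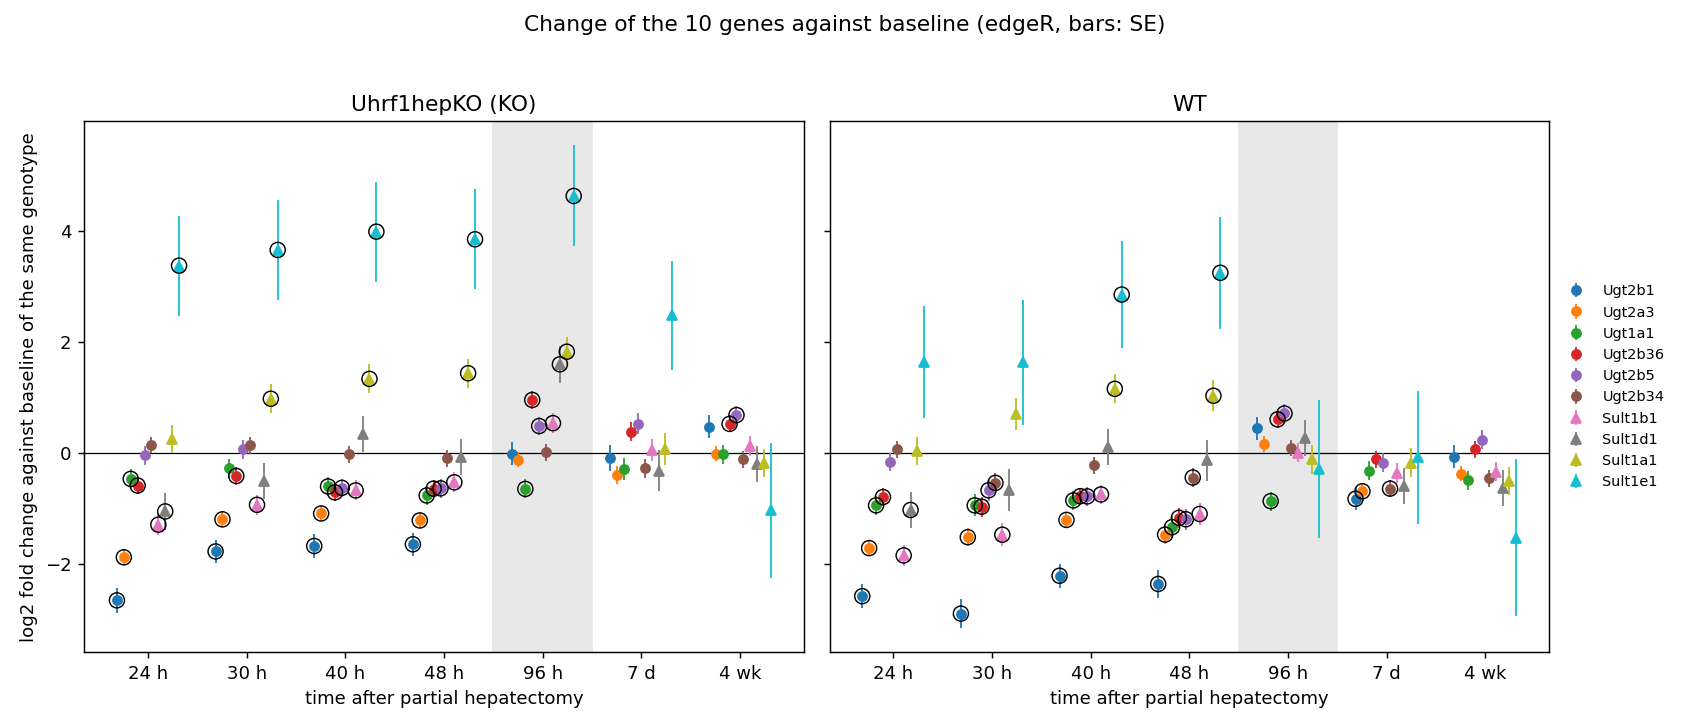
Log2 fold change of each gene against baseline of the same genotype (edgeR; bars are SE), KO left and WT right, circles for UGT and triangles for sulfotransferase genes, with a ring where the adjusted p was under 0.05; 96 h is shaded. Ugt2b1 lies lowest at 24 to 48 h in both panels, between -2.66 and -1.65 in KO and between -2.89 and -2.21 in WT, and Sult1e1 lies highest.

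Counted over the 10 genes, most fell in the first 48 h. In KO livers 6, 4, 6 and 6 genes were called lower and 1, 2, 2 and 2 higher at 24, 30, 40 and 48 h, where 12.2%, 16.1%, 17.7% and 17% of all 14090 genes were called lower and 11.5%, 17%, 17.9% and 19% higher. In WT livers 6, 7, 6 and 7 were called lower and 0, 0, 2 and 2 higher, where 11.9%, 8.35%, 17.3% and 15.4% of all genes were called lower and 10.5%, 9.33%, 19.2% and 15.6% higher. The genes' median log2 fold changes were -0.53, -0.35, -0.62 and -0.58 in KO and -0.87, -0.81, -0.76 and -1.13 in WT at these times, while the median over all genes stayed within 0.02 of 0. At 7 days 0 genes were called in KO (5.56% of all genes; 4 of the 10 at an unadjusted p under 0.05; 1 called by DESeq2, Ugt2b5, and 1 by limma, Ugt2a3) and 0 were called higher and 3 lower in WT (2.25% and 1.31% of all genes). At 4 weeks 2 were called higher and 0 lower in KO (4.29% and 4.28% of all genes). In WT 0 were called by edgeR (1.17% of all genes in either direction), and 0 by DESeq2 and limma. There 3 of the 10, Ugt1a1, Ugt2a3 and Ugt2b34, had an unadjusted edgeR p under 0.05. In a joint test over the 6 times other than 96 h, 9 of the 10 changed in KO, all but Ugt2b34 (adjusted p = 0.22), where 65.7% of all genes did, and 10 of 10 changed in WT, where 53.6% did.

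Between genotypes, no single condition outside 96 h gave a call for any of the 10 genes, while Sult1e1 was called higher in KO for the mean over conditions. At baseline, 24, 30, 40 and 48 h, 7 days and 4 weeks, 0 of the 10 were called between KO and WT by edgeR, and DESeq2 and limma also called 0. The shares of all genes called were 0.0852%, 0.0426%, 0.937%, 0.142%, 0.135%, 0.135% and 0.22%, so calls were rare in these comparisons altogether. At an unadjusted p under 0.05 the numbers were 3, 3, 4, 1, 0, 2 and 0 of 10. A p above the threshold does not show that levels were equal: for Ugt2b1 at baseline the 95% interval of the log2 difference ran from -0.99 to -0.15.

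At baseline 6 of the 10 genes had all 3 KO libraries below all 3 WT libraries in TMM-scaled CPM, where this held for 7.07% of all genes. They were Ugt2a3, Ugt2b1, Ugt2b5, Ugt2b36, Sult1a1 and Sult1b1. Ugt2b1 had the largest of these differences, at 736, 822 and 712 CPM in KO livers against 1040, 971 and 1366 CPM in WT livers (-0.57 ± 0.21, adjusted p = 0.553). Sult1b1 followed at -0.46 ± 0.18 (adjusted p = 0.555), and the median over the 10 genes was -0.31, against -0.00 over all genes. The separation depended on the scaling. In the authors' FPKM only Ugt2b1 of these 6 genes stayed apart, at 257 to 297 in KO and 316 to 422 in WT. The others overlapped, for example Ugt2b36 at 350 to 399 FPKM in KO and 375 to 425 FPKM in WT. At 24 h Ugt2b1 and Ugt2a3 were again lower in every KO library (4.29% of all genes), with log2 differences of -0.65 (adjusted p = 0.79) and -0.47 (adjusted p = 0.546). At 30 h the order was the other way for 4 genes, Ugt1a1, Ugt2b5, Ugt2b36 and Sult1e1, whose 3 KO libraries lay above both WT libraries, as did 15.4% of all genes. At 40 h Sult1a1 and Sult1b1 lay lower in every KO library (6.45% of all genes), and at 48 h Sult1d1 did (7.91%) while Ugt2b36 lay higher (9.99%). At 7 days Ugt2b5, Ugt2b36 and Sult1e1 lay higher in both KO libraries (9.24%) and Ugt1a1 lower (9.07%), and at 4 weeks Ugt2b36 lay higher (6.84%).

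Sult1e1 was the gene with a higher level in KO livers over the course. Besides 24 h and 40 h, given above, it had 8.96, 4.15 and 26.6 CPM in KO livers against 4.02 and 1.51 CPM in WT livers at 30 h. At 48 h it had 6.95, 17.8 and 20.8 CPM in KO livers against 9.69 and 6.83 CPM in WT livers. Every KO library was above every WT library at 24, 30 and 40 h and 7 days (4.59%, 15.4%, 5% and 9.24% of all genes), and the groups overlapped at 48 h, baseline and 4 weeks. The log2 differences of KO minus WT at baseline, 24, 30, 40 and 48 h, 7 days and 4 weeks were 0.27 ± 1.15, 2.00 ± 0.80, 2.29 ± 0.95, 1.40 ± 0.75, 0.87 ± 0.83, 2.82 ± 1.03 and 0.76 ± 1.51, none called. Averaged over the 7 conditions other than 96 h it was 1.49 ± 0.39 (95% interval 0.69 to 2.29, adjusted p = 0.0358). It was the only 1 of the 10 called for that mean, where 2.13% of all genes were called. With the 96 h libraries included, Sult1e1 (1.95 ± 0.37, adjusted p = 0.00117) and Ugt2a3 (-0.20 ± 0.05, adjusted p = 0.0251) were called, where 3.14% of all genes were. The Ugt2a3 call was lost without WT 30 h replicate 2 (adjusted p = 0.0627), WT 48 h replicate 2 (0.0574) or KO 7-day replicate 1 (0.0594), and with limma (0.097 and 0.0789). The Sult1e1 call over 7 conditions was lost without any 1 of 16 of the 39 libraries (adjusted p 0.05002 to 0.0928), without the filter on low counts and with the replicate number as a block. The other 9 genes had mean differences between -0.20 (Sult1a1) and 0.10 (Ugt2b5), with 95% intervals inside -0.43 to 0.24. Acute phase genes, which mark the inflammatory response of hepatocytes, were called for that mean in 0 of 23 and in 0 to 1 of 23 at any single condition other than 96 h. Female-biased liver genes were called higher in KO for that mean in 5 of 14 and lower in 0, and male-biased genes were called lower in 1 of 16 and higher in 0. The male-biased genes summed to 12706 to 17602 CPM in KO and 23658 to 31551 CPM in WT at baseline and to 4147 to 7199 CPM in KO and 13317 to 13568 CPM in WT at 48 h, and overlapped between genotypes at 40 h, 7 days and 4 weeks. The female-biased genes summed to 176 to 266 CPM in KO and 92.3 to 135 CPM in WT at baseline. The part of these genes in the Sult1e1 difference was not tested.

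**Figure D3:**
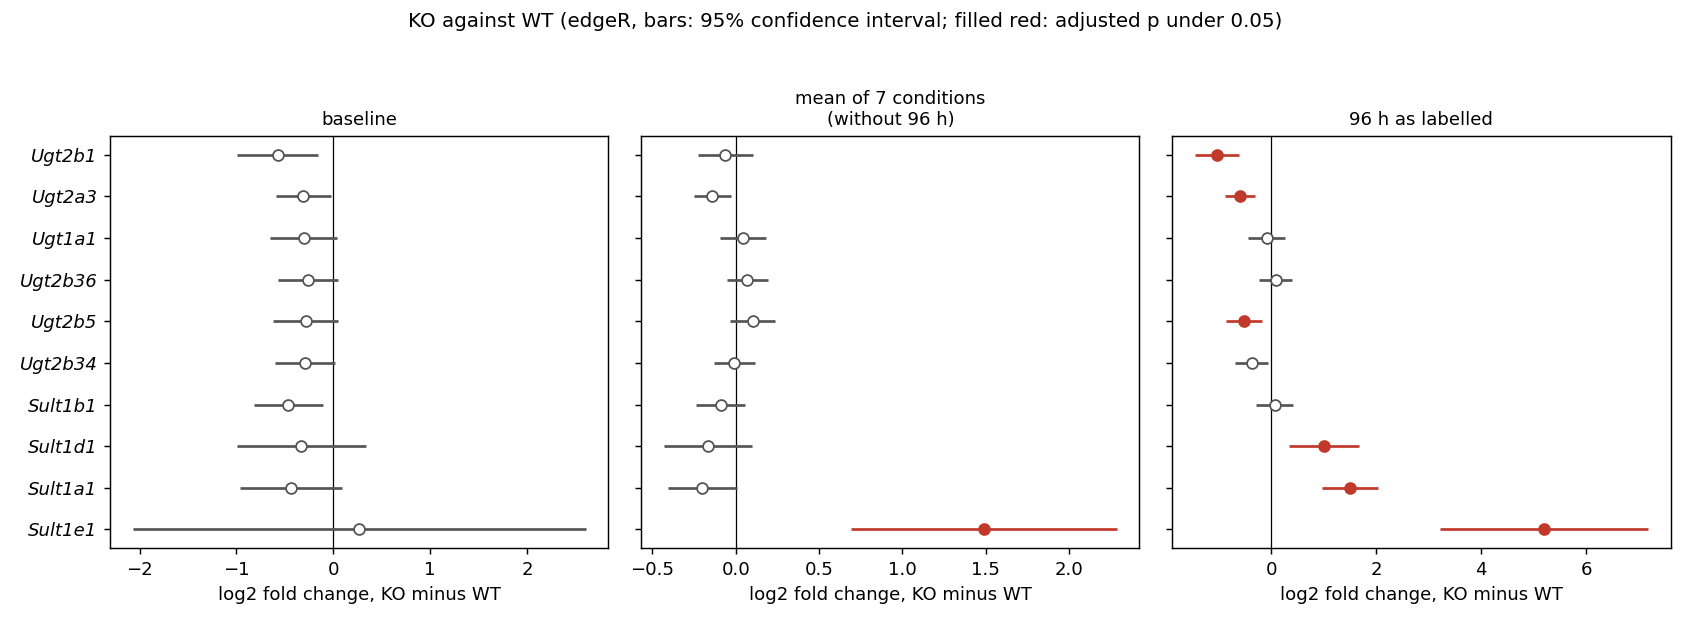
Log2 difference of KO minus WT for each gene at baseline, as the mean over 7 conditions without 96 h, and at 96 h as labelled (edgeR; bars are 95% confidence intervals; filled where the adjusted p was under 0.05; the panels have different scales). Outside 96 h the Sult1e1 mean of 1.49 is the filled point, and at baseline the other 9 genes lie left of 0 with none called.

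Whether the time course itself differed by genotype was tested by interaction. Over the 6 times other than 96 h, 0 of the 10 genes were called (0.0426% of all genes; 2 of the 10, Ugt2b1 and Ugt2b5, at an unadjusted p under 0.05; 0 by DESeq2 and limma). For Ugt2b1 the largest single term was at 30 h, where the change against baseline was 1.12 ± 0.31 log2 units less negative in KO than in WT (adjusted p = 0.277). All these terms share the 3 KO and 3 WT baseline libraries, so they are not separate pieces of evidence.

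In the libraries labelled 96 h, 6 of the 10 genes were called between KO and WT, where 14.3% of all genes were. Sult1a1 had 1086, 533 and 408 CPM in libraries labelled KO and 237, 295 and 183 CPM in those labelled WT (1.50 ± 0.26, adjusted p = 0.000291). Sult1e1 had 53.8, 18.7 and 6.21 CPM in those labelled KO and 0.731, 1.04 and 0.355 CPM in those labelled WT (5.19 ± 0.97, adjusted p = 0.000688). Ugt2b1 had 798, 653 and 802 CPM in those labelled KO and 1527, 1644 and 1424 CPM in those labelled WT (-1.03 ± 0.21, adjusted p = 0.00117). These groups did not overlap, nor did those of Ugt2a3 (-0.59, adjusted p = 0.00466), Ugt2b5 (-0.51, adjusted p = 0.0355) and Ugt2b34 (-0.37, adjusted p = 0.0978); 11.8% of all genes lay lower and 12.2% higher in every library labelled KO. Sult1d1 had 742, 263 and 153 CPM in those labelled KO and 184, 247 and 145 CPM in those labelled WT, overlapping, and its call (1.01 ± 0.33, adjusted p = 0.0366) was lost without KO replicate 1 (0.11, adjusted p = 0.837), WT replicate 1 (0.98, 0.1) or WT replicate 3 (0.84, 0.135). It was also lost in 6 of 8 other alternatives, among them the replicate block (0.98, adjusted p = 0.0519), library sizes only (0.70, 0.0632), no filter (1.01, 0.0603) and limma (0.64 and 0.63, 0.204 and 0.198). The call of Ugt2b5 was lost without any 1 of 5 of the 6 libraries (adjusted p 0.053 to 0.15). In a fit of the 96 h libraries alone only Ugt2b1 and Sult1e1 were called.

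Against baseline, 6 genes were called higher and 1 lower in the libraries labelled KO 96 h (21.9% and 22.1% of all genes), and 2 higher and 1 lower in those labelled WT 96 h (12.8% and 14.6%). Ugt1a1 was the gene called lower in both, with log2 fold changes of -0.65 in those labelled KO and -0.87 in those labelled WT, and Ugt2b36 (0.95 and 0.60) and Ugt2b5 (0.48 and 0.71) were called higher in both. The Ugt2b5 call in those labelled KO was lost with library sizes only (0.09, adjusted p = 0.695), with limma (0.19 at either pseudocount) and without KO baseline replicate 2 (0.0898) or KO 96 h replicate 1 (0.058). Sult1e1 (4.63), Sult1a1 (1.82), Sult1d1 (1.60) and Sult1b1 (0.54) were called higher in those labelled KO and not in those labelled WT. The Sult1b1 call was lost with library sizes only (0.10, adjusted p = 0.626), with limma (0.26 and 0.25) and without KO baseline replicate 2 (0.0583), KO baseline replicate 3 (0.0654) or KO 96 h replicate 1 (0.28, adjusted p = 0.228). The difference between these changes was itself called for Sult1a1 alone (1.94 ± 0.37, adjusted p = 0.00344; 2.91% of all genes), against an adjusted p of 0.0783 for Sult1e1, 0.107 for Sult1d1 and 0.244 for Sult1b1. Over all 7 times the course differed by genotype for Ugt2b1 (adjusted p = 0.0262) and Sult1a1 (0.0325), where 1.41% of all genes differed, and without WT 30 h replicate 3, WT 96 h replicate 1 or WT 96 h replicate 2 it was 0 of 10. Acute phase genes moved with this split: 15 of 23 were called higher in the libraries labelled KO, where 14.3% of all genes were called in either direction. Their summed levels were 46719 to 97516 CPM in those labelled KO and 25225 to 28582 CPM in those labelled WT. S phase and mitosis genes (14 of 25 called higher) moved with it too. So did Kupffer cell markers (summed 615 to 1014 CPM in those labelled KO and 443 to 546 CPM in those labelled WT, none of 12 at 0). The counts called lower in these lists are not given here. The part of these lists in the results at 96 h was not tested, and genotype and label error cannot be told apart there.

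Of the other UGT genes listed, 10 of 16 were tested, and between 4 and 7 of these were called lower at each time from 24 to 48 h. In KO livers 4, 6, 4 and 6 of these 10 were called lower at 24, 30, 40 and 48 h, and in WT livers 4, 7, 6 and 5 were, with none higher in either, where 12.2% to 17.7% of all genes were called lower in KO and 8.35% to 17.3% in WT. Their medians at these times were -0.71, -0.84, -0.50 and -0.76 in KO and -0.62, -0.90, -0.56 and -0.83 in WT. Ugt2b38, the neighbour that shares sequence with Ugt2b5, had -1.53 in KO and -1.71 in WT at 48 h. Ugt2b35 had 0.40 in KO and -0.06 in WT at 48 h, neither called. Ugt1a9 was the 1 gene of this list called for the genotype mean (0.55 ± 0.14, adjusted p = 0.0222).

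Other sulfotransferases were lower after surgery as well. Only 4 of 17 listed genes passed the filter, so their count speaks for few genes. Of these 3, 2, 3 and 4 were called lower in KO and 3, 2, 3 and 3 in WT at 24, 30, 40 and 48 h, and none higher. Of all genes, 12.2% to 17.7% were called lower in KO and 8.35% to 17.3% in WT. Sult2a8, a bile acid sulfotransferase of mouse liver, averaged 129 ± 39.3 CPM in KO livers at 24 h, against 910 ± 104 CPM at baseline (-2.82 ± 0.33, adjusted p = 8.63e-08). In WT livers it averaged 175 ± 85.1 CPM at 24 h, against 1131 ± 98 CPM at baseline (-2.69 ± 0.32, adjusted p = 2.31e-07; SD, n = 3 each). Sult1c2 had log2 fold changes of -4.36 in KO and -3.87 in WT at 24 h. Sult2a7 was called higher in KO for the genotype mean (1.20 ± 0.24, adjusted p = 0.00188).

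Genes of cosubstrate supply and conjugate cleavage were called in both directions. Of 13 tested in this list, 3, 1, 3 and 4 were called lower and 1, 1, 4 and 2 higher in KO at 24, 30, 40 and 48 h, and 4, 2, 2 and 3 lower and 1, 1, 2 and 2 higher in WT. Of all genes, 12.2% to 17.7% were called lower and 11.5% to 19% higher in KO. In WT 8.35% to 17.3% were called lower and 9.33% to 19.2% higher, and several of the list's counts lie near these shares. Papss2, which makes the sulfate donor PAPS, averaged 70.9 ± 6.34 CPM in KO livers at 24 h, against 215 ± 9.74 CPM at baseline (-1.60 ± 0.21, adjusted p = 6.42e-07). In WT livers it averaged 80.2 ± 10.5 CPM at 24 h, against 226 ± 43.5 CPM at baseline (-1.49 ± 0.21, adjusted p = 2.1e-06). Ugp2, which makes UDP-glucose, had log2 fold changes of -1.12 in KO and -1.46 in WT at 48 h. Ugdh, which oxidizes UDP-glucose to UDP-glucuronic acid, was 0.31 ± 0.07 higher in KO on the log2 scale over the 7 conditions (adjusted p = 0.00458).

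Of 9 transporters that carry conjugates, 2, 3, 4 and 6 were called lower in KO and 3, 3, 4 and 5 in WT at 24, 30, 40 and 48 h, and 1, 1, 1 and 0 higher in KO and 0 in WT. Abcc3, a basolateral exporter of glucuronides, had log2 fold changes of -1.11 in KO and -1.71 in WT at 48 h, and was 0.46 ± 0.10 higher in KO over the 7 conditions (adjusted p = 0.00424). Among 26 regulators of drug metabolism genes, 4, 6, 6 and 7 were called lower and 3, 2, 2 and 1 higher in KO at those times, and 4, 6, 6 and 5 lower and 2, 2, 1 and 1 higher in WT. Cebpa, a hepatocyte transcription factor, had log2 fold changes of -2.15 in KO and -2.21 in WT at 40 h. Of 14 genes induced through CAR and PXR, 6, 2, 4 and 1 were called lower and 2, 1, 2 and 3 higher in KO, and 8, 3, 4 and 5 lower and 1, 0, 0 and 1 higher in WT. Of this list Cyp3a11 was called higher in KO for the genotype mean (1.00 ± 0.22, adjusted p = 0.00835). From 24 to 48 h, 8.35% to 17.7% of all genes were called lower and 9.33% to 19.2% higher. Several counts of the regulators and of the CAR and PXR genes lie near those shares.

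Several other programs moved at the same times as the 10 genes. Of 16 male-biased liver genes, 9, 7, 11 and 11 were called lower in KO and 8, 8, 12 and 12 in WT at 24, 30, 40 and 48 h, and none higher. Clock genes of the Dbp arm, which swing over the day, were called lower in 6, 1, 5 and 9 of 10 in KO and in 8, 0, 6 and 9 of 10 in WT. Hepatocyte markers were called lower in 8, 3, 5 and 7 of 15 in KO and in 10, 1, 7 and 7 of 15 in WT. Their summed level was 74979 to 87020 CPM in KO and 74656 to 88365 CPM in WT at 24 h, against 104446 to 113074 CPM in KO and 110255 to 125959 CPM in WT at baseline, with none of 15 at 0. At 40 h it was 95991 to 119094 CPM in KO and 111067 to 121353 CPM in WT, which overlapped baseline in both genotypes. Periportal genes were called lower in 9, 6, 4 and 5 of 11 in KO and in 10, 5, 4 and 4 of 11 in WT. Acute phase genes were called higher in 20, 15, 18 and 16 of 23 in KO and in 19, 19, 16 and 19 of 23 in WT. Markers of other cells were counted in the same way, where 8.35% to 17.7% of all genes were called lower and 9.33% to 19.2% higher at these times; several of these counts lie near those shares. At 24, 30, 40 and 48 h, endothelial cell markers were called lower in 0, 5, 1 and 5 of 12 in KO and in 0 of 12 in WT each time, and higher in 0, 1, 0 and 0 in KO and in 0, 0, 2 and 0 in WT. Lymphocyte markers were called lower in 0, 4, 4 and 1 of 7 in KO and in 1 of 7 in WT each time, and none higher. Kupffer cell markers were called lower in 1, 4, 1 and 3 of 12 in KO and in 0, 0, 1 and 1 of 12 in WT, and at most 1 was higher. Monocyte and neutrophil markers were called higher in 4, 2, 1 and 1 of 9 in KO and in 4, 2, 2 and 3 of 9 in WT, stellate cell markers in 0, 2, 4 and 0 of 12 in KO and in 2, 2, 3 and 1 of 12 in WT, and cholangiocyte markers in 1, 4, 2 and 4 of 9 in KO and in 4, 1, 2 and 1 of 9 in WT. For these lists the counts called lower are not given, so the counts called higher do not give the direction of a list as a whole. In KO the monocyte and neutrophil markers summed to 31.6 to 40.4 CPM at baseline. The KO sums were lower at 30 h (18.6 to 22.2 CPM) and 48 h (14.6 to 25 CPM) and overlapped baseline at 40 h (15.2 to 33.7 CPM). The WT sums were 15.9 to 26.5 CPM at baseline, 15.8 to 40.8 CPM at 30 h and 13.6 to 73 CPM at 48 h. Cholangiocyte markers in KO summed to 45.3 to 58.6 CPM at baseline, 44.8 to 52.6 CPM at 30 h and 41.4 to 59.1 CPM at 48 h. In WT they summed to 39.3 to 62.3 CPM at baseline and 79.4 to 114 CPM at 24 h. Stellate cell markers summed to 231 to 368 CPM in KO and 195 to 262 CPM in WT at baseline. At 40 h they summed to 364 to 681 CPM in KO and 302 to 443 CPM in WT. Erythroid markers were called lower in 2 of 7 in both genotypes each time. The part of these programs and cells in the results on the 10 genes was not tested.

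**Figure D4:**
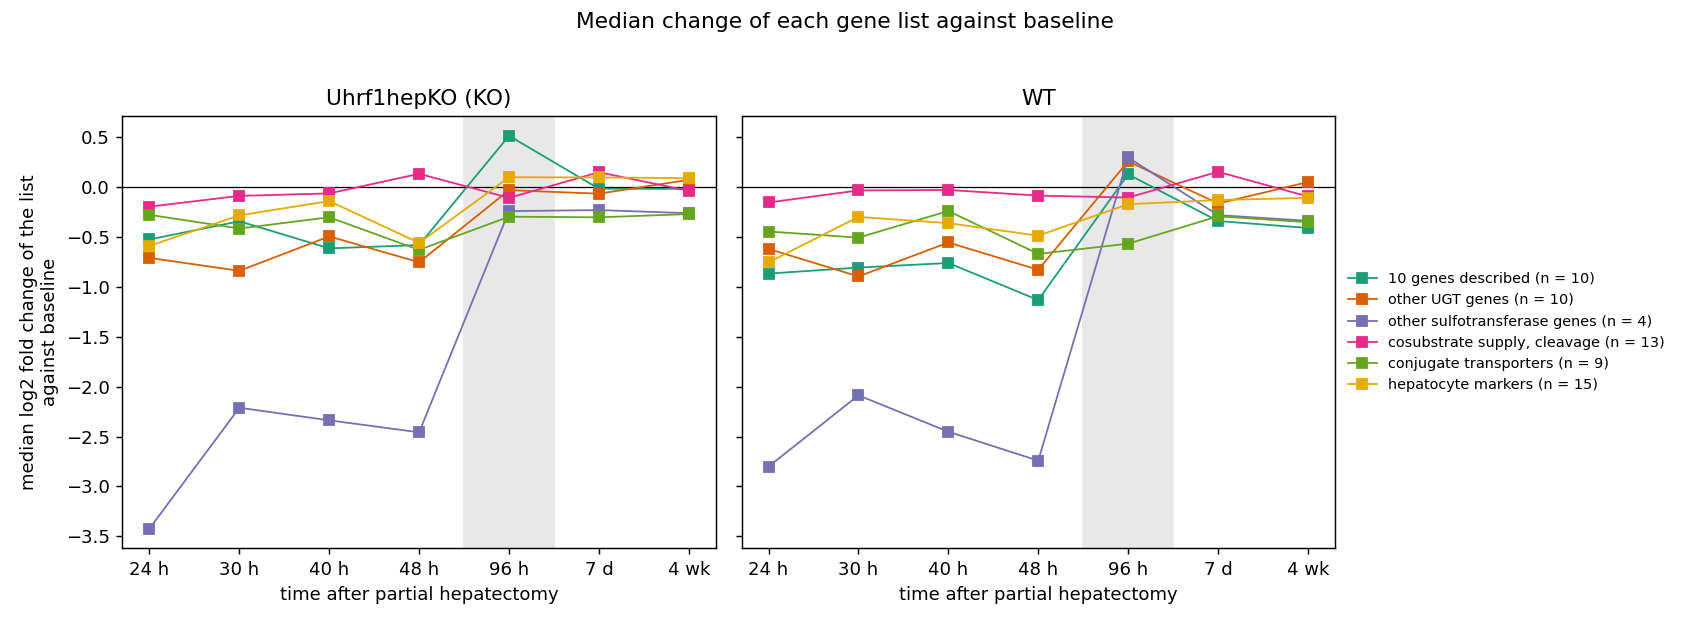
Median log2 fold change against baseline of each gene list in KO (left) and WT (right); n is the number of genes tested, 96 h is shaded, and the time axis is not to scale. From 24 to 48 h the 10 genes' median lay between -0.62 and -0.35 in KO and between -1.13 and -0.76 in WT, and the 4 other sulfotransferases lay lowest.

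Across the 16 group means of log2 CPM, each gene's nearest pattern among 10681 genes was looked up, as a description. The 16 include the groups labelled 96 h, and the lookup was not repeated without them. Ugt2b1 was nearest to Acadsb (Pearson r = 0.982), Ugt2a3 to Ugt2b1 (0.977), Ugt2b36 to Rarres2 (0.987), Ugt2b5 to Scp2 (0.953) and Ugt1a1 to Mia2 (0.905). Sult1b1 was nearest to Gsta3 (0.960), Sult1d1 to H3f3a (0.943), Sult1a1 to Tceal9 (0.921) and Sult1e1 to Cyp2c39 (0.908). Ugt2b34 had the weakest nearest match, Zfp869 at 0.818, and its correlations with the other 9 lay between -0.07 and 0.27. Within the 10, Sult1b1 went with Ugt2a3 (0.94) and Ugt2b1 (0.93). Ugt2b5 and Sult1a1 ran opposite to each other, at -0.66 over 16 groups and -0.90 over the 14 groups without 96 h. Other pairs also moved without 96 h, such as Ugt2b36 with Sult1d1 (0.44 to -0.01) and Ugt1a1 with Ugt2b36 (0.48 to 0.85).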

How the data were processed

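Gene counts and FPKM were deposited by the authors as 2 tables of the whole series, mapped to libraries through their column names. Per the submitters' processing notes, the tools were FastQC 0.11.5, Trimmomatic, TopHat2 2.1.0, Cufflinks 2.2.1, HTSeq and DESeq2, with mm10; the strand setting is not given in the sources used here. The deposited counts are whole numbers per gene, and the deposited FPKM values are normalized by the authors for length and depth.

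The genes described and all other lists were chosen with earlier results of these data known. All 10 genes are named. Of each other list, up to 3 genes with the smallest edgeR p in a comparison used here may be named, and any gene whose value stands beside the 10 as a measure of other cells, the clock or regulators. Genes with the highest Pearson correlation to a member over the 16 group means may also be named.

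Counts were fitted with edgeR 4.0.16 (R 4.3.3): TMM scaling, filterByExpr, 1 mean per group, robust quasi-likelihood F tests, and Benjamini-Hochberg adjustment over 14090 genes, with calls at an adjusted p under 0.05. The fit left 29 residual degrees of freedom. Alternatives were other scalings, no filter, a replicate block, DESeq2 1.42.0 and limma 3.58.1 on log2(FPKM + 0.1) or log2(FPKM + 1). Further alternatives were a fit without the 96 h libraries, single conditions, and the loss of each library. The steps were tested on simulated data with changes set in WT 24 h against baseline. Of 99 genes changed 2-fold, 66.67% were called, and of 100 genes changed 1.5-fold, 9% were called. There were 2 false calls among 77 calls. Every simulated gene had the same dispersion (spread beyond counting noise), and no group but WT 24 h was changed. These rates therefore do not carry over to genes with a wider spread, such as Sult1e1. The 42 replicate pairs differed beyond counting noise. Annotation came from GENCODE (GRCm38) and promoters from RefSeq (GRCm38.p6). One regulator gene and a promoter motif are not reported here.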

Additional observations from a re-analysis of the deposited data

Results flagged for a closer look

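Ugt2b1 was picked out because its time course differed between KO and WT by the interaction test over all 7 times (adjusted p = 0.02624, edgeR). Its levels in the libraries labelled 96 h were 751 CPM in those labelled KO and 1532 CPM in those labelled WT on average, and without those libraries the interaction had an unadjusted p of 0.005706 and an adjusted p of 0.5515. Sult1a1 was picked out by the same test (adjusted p = 0.03248) and by its term at 96 h (adjusted p = 0.00344). It averaged 676 CPM in libraries labelled KO 96 h and 238 CPM in those labelled WT 96 h, and without those libraries its interaction had an adjusted p of 1. Its results at 96 h use libraries whose WT labels go against Bglap3 and Rhox5, so genotype and label error cannot be told apart there. For Ugt2b1 the 96 h term was not called (-0.45 ± 0.29, adjusted p = 0.414) and the largest term was at 30 h (1.12 ± 0.31, adjusted p = 0.277). No gene of the 10 was called over the 7 times without WT 30 h replicate 3, WT 96 h replicate 1 or WT 96 h replicate 2.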

How the results depend on the processing

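Calls against baseline over the 6 times without 96 h numbered 31 in KO and 33 in WT. Without 1 library at a time they numbered 27 to 31 in KO and 29 to 33 in WT, and 22 of the 31 and 23 of the 33 held without each library and in each other alternative. Between genotypes, calls over the 7 conditions without 96 h stayed at 0 in each of 39 fits without 1 library. The 6 calls between genotypes at 96 h became 2 with the 96 h libraries fitted alone and 4 to 5 without 1 library, 4 without WT replicate 1 or KO replicate 1. The 1 call for the mean over 7 conditions became 0 with no filter on low counts, 0 with the replicate number as a block, and 0 to 1 without 1 library. The 2 calls for the mean over 8 conditions became 1 with limma at either pseudocount and 1 to 2 without 1 library. The 2 interaction calls over 7 times became 4 with library sizes only, 1 with the replicate block, 0 with limma on log2(FPKM + 0.1) and 0 to 2 without 1 library. The cause was not tested in these cases.

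Replicate numbers were not used as pairs in the main fit. Of 21 same-numbered pairs, 8 had a correlation of deviations over 0.1 (range -0.31 to 0.31), and 23 of 45 libraries correlated best with their own number. No chance level was worked out for these values, so they do not settle whether the numbers pair samples. In CPM per kilobase of exon, in place of FPKM, WT baseline levels were 25.8 for Ugt1a1 (252 FPKM), 183 for Ugt2a3 (150), 438 for Ugt2b1 (354), 537 for Ugt2b5 (496), 391 for Ugt2b36 (398) and 16 for Sult1b1 (23.5). Library sizes in place of TMM shifted all log2 fold changes by over 0.1 in 9 of 24 comparisons, at most by -0.41, for KO 96 h against baseline. The uncalled baseline difference of Sult1e1, 0.27, ranged from -0.33 to 1.66 without 1 library, and was -0.33 without WT replicate 2 and -0.12 without KO replicate 2. Its counts of 0 to 597, with a median of 44, limit its precision.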
